A study of Homo sapiens with 4 samples.

Results

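The genes described here are 34 genes of the p53 pathway and direct p53 targets outside the BCL2 family, measured in GIST-T1 cells, a human gastrointestinal stromal tumor cell line. They were selected by gene name, and every array probe whose gene name was exactly one of these symbols was taken. Of the 34 genes, 33 were on the array, with 51 of its 50599 probes, and 32 could be tested, among 16192 tested gene names of 36337. The treated cells received 100 pmol of a miR-34a mimic and the control cells 100 pmol of a negative control mimic, in both cases by nucleofection of 3000000 cells. Total RNA was taken after 48 h, and each condition had 2 arrays. Neither the labels nor the methods say whether these came from separate transfections, so the p-values measure only the spread between these arrays. Both conditions are cells of the same line, which stands for a single tumor.

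p53 is a transcription factor that is held at low levels by MDM2 and MDM4 and accumulates after DNA damage or other stress. It then binds response elements near genes that halt the cell cycle, repair DNA, limit oxidative stress or trigger apoptosis, and several of its targets in turn switch p53 off again. The miR-34 family is itself among the transcriptional targets of p53. A microRNA of this kind pairs through its seed, bases 2 to 8, with messenger RNAs and lowers their level or translation. The mature strand is shown because it is the agent whose addition separates the conditions. The mature strand is encoded on the minus strand at chr1:9151735-9151756 (GRCh38.p14, RefSeq), and the seed is in capitals.
hsa-miR-34a-5p: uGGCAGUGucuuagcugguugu

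A target site for this seed reads CACTGCC. These letters were in 0 of the 51 member probes, against 0.435% of all probes, and the reverse complement GGCAGTG was in 0 of the member probes, against 0.48% of all probes. At such shares 0 matches among 51 probes are unremarkable. A probe covers only 60 bases of a transcript, so these counts cannot show whether the transcripts of the members hold a site.

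Signals are given on a log2 scale relative to the 75th percentile of the detected probes of each array, so a level of 0 is that percentile, and a difference is mimic minus control. A probe counted as detected where it was well above the local background, and 41.8% to 45.2% of the probes were detected per array. All 4 arrays shared 1 slide and 1 scan, and 0 probes were saturated. The 6 markers of gastrointestinal stromal tumor examined (KIT, ANO1, ETV1, PRKCQ, GPR20 and CD34) were detected on all 4 arrays, whereas 1 of 5 epithelial (EPCAM) and 1 of 5 endothelial markers (CDH5) passed the detection filter. Of the 6 tumor markers, 5 were lower on both mimic arrays than on both control arrays, against 32.1% of all gene names. CD34 was higher on both, against 30%. The differences ranged from −0.71 for KIT (1.63-fold, adjusted p = 0.0933, limma) to 0.36 for CD34, and were small for ANO1 (−0.07) and ETV1 (−0.08). The part of these markers in the results below was not tested. In bulk RNA, fewer cells of a type and less RNA per cell cannot be told apart.

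Transcripts of p53 target genes differed in both directions after miR-34a. MDM4, which binds p53 and blocks its activation domain, was 2.69-fold lower, and PLK2, a polo-like kinase induced by stress, was 1.51-fold lower. TNFRSF10A, a receptor for the death ligand TRAIL, was detected on the control arrays only. Set against the lowest detected signal of the mimic arrays it was 1.26-fold lower, and its difference was smaller than this with another background correction (−0.28). GADD45B, SPATA18 and POLH were higher, none by more than 1.5-fold. At an adjusted p under 0.05 (limma, Benjamini-Hochberg over all tested probes), 0 of the 32 genes were called, as were 0 of all tested gene names (0%). The smallest adjusted p of any probe on the array was 0.0933, and 3 of the members (MDM4, BTG2 and PLK2) had it.

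By direction alone, 17 members were lower and 15 higher. TNFRSF10A passed the detection filter only through its control arrays, and over the 31 members detected on all 4 arrays 16 were lower and 15 higher. At an unadjusted p under 0.05, 9 were lower and 6 higher, or 28.1% and 18.8% of the members, against 12.7% and 12.5% of all tested gene names. Both mimic arrays lay below both control arrays for 15 members (46.9%), against 32.1% of all gene names. They lay above them for 10 (31.2%), against 30%, so the share above was near that of all genes. TNFRSF10A is in both lower counts. With only probes detected on all 4 arrays, 8 members were lower and 6 higher at an unadjusted p under 0.05 (limma). With that filter, 14 of 31 members lay below and 10 above. These shares over all gene names were not computed with that filter. An exact permutation test of 1 gene cannot give a two-sided p below 0.33 with so few arrays. More than 1.5-fold lower were 3 members (9.38%), against 4.95% of all gene names, and more than 1.5-fold higher were 0, against 1.92%. TNFRSF10A is 1 of those 3 by its measured signals but is bounded only at 1.26-fold. With only probes detected on all 4 arrays, 2 of 31 members were more than 1.5-fold lower and 0 higher. Over all gene names, 406 were lower and 206 higher with that filter. Without that filter, 15245 of 16192 tested gene names had their brightest probe detected on all 4 arrays. The filter can also keep a gene by a dimmer probe, so 15245 is not the exact base of those counts. The median difference of the members was −0.04, against −0.015 over all gene names, and the members ranged from −1.43 to 0.58.

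When limma was run with a spread that depends on the signal, 5 members fell at an adjusted p under 0.05 (MDM4, PLK2, BTG2, TNFRSF10B and SERTAD1) and 1 rose (GADD45B). These are 15.6% and 3.12% of the members, against 4.23% and 4.06% of all gene names that fell and rose in that fit. On simulated data this fit called more unchanged probes than the fit without the dependence on signal, and it also recovered more of the changed probes. With the normexp background correction, MDM4, BTG2, PLK2 and TNFRSF10B passed the threshold.

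**Figure D1:**
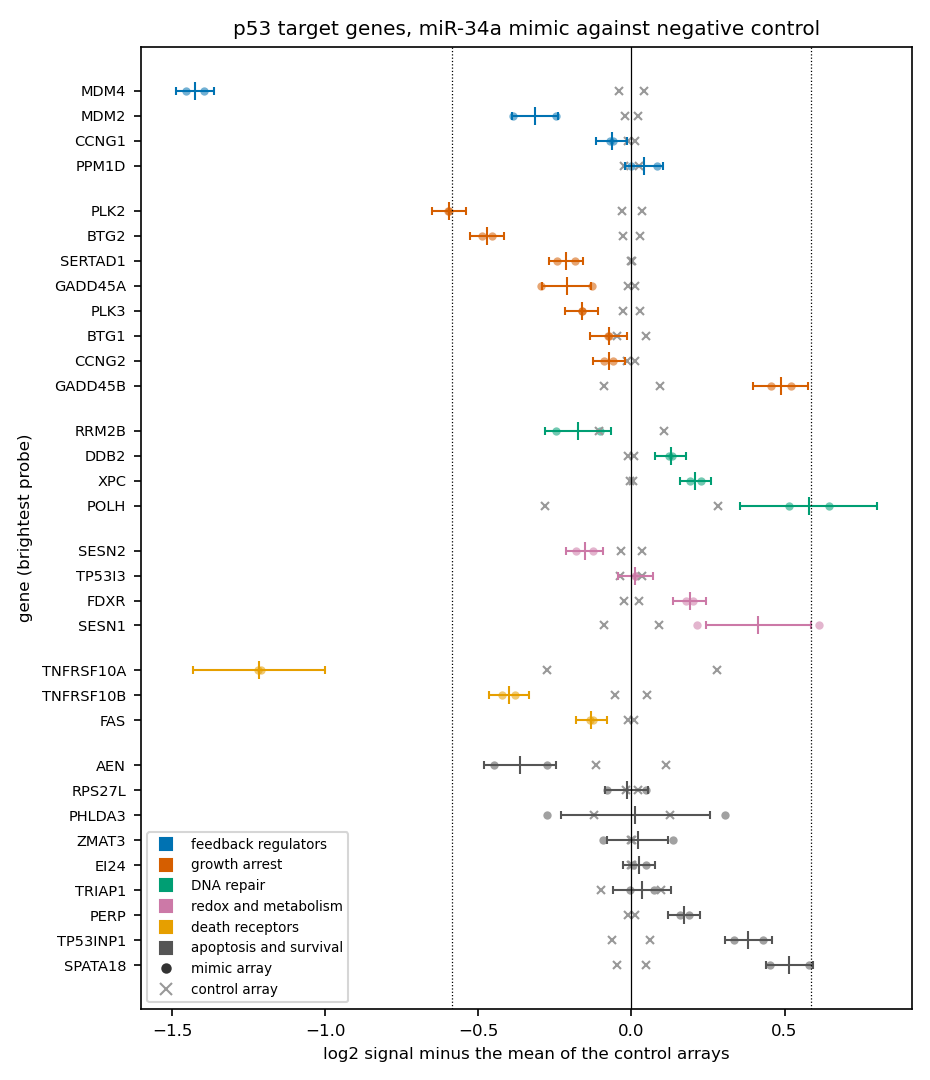
Log2 signal of each tested p53 target gene, by its brightest probe, relative to the mean of the 2 control arrays. Points are mimic arrays, crosses control arrays, ticks with bars the difference and its SE from limma, and dotted lines 1.5-fold. MDM4 and PLK2 lie beyond the lower line and 0 genes lie beyond the upper one, and TNFRSF10A, drawn at its measured signals, was not detected on the mimic arrays and is bounded at 1.26-fold.

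The feedback regulators are targets that limit p53 itself. Of 4 tested, 3 were lower and 1 higher, with a median difference of −0.19. MDM4 had 4 probes, spread along its transcript, and all of them were lower on both mimic arrays. The brightest probe (A_19_P00320721, hg19 chr1:204526416-204526475) lies at base 9244 of the transcript, far in its 3′ part, and had levels of −2.44 and −2.50 on the mimic arrays and −1.08 and −1.0 on the control arrays. The conditions did not overlap, and the gap was larger than the spread between arrays of either condition, with a difference of −1.43 ± 0.06 (SE) and an adjusted p of 0.0933 (limma). Over the alternative settings, the difference of MDM4 ranged from −1.47 to −1.12 and its adjusted p from 0.00568 to 0.361.

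The other MDM4 probes gave differences of −1.28 (2.42-fold) at base 377, −0.72 (1.64-fold) at base 1451 and −1.06 (2.08-fold) at base 9759. The probe at base 377 had levels of −3.61 and −3.70 with the mimic and −2.39 and −2.37 in the control. The probe at base 1451, spotted 10 times, had levels of −2.09 and −2.19 with the mimic and −1.45 and −1.40 in the control. Both of these probes lie in coding sequence, the first in the domain that binds p53 and the second in the RING finger through which MDM4 pairs with MDM2, and their 60 bases are shown because they read the lower level outside the 3′ end.
MDM4 probe A_33_P3389376, hg19 chr1:204499870-204499929: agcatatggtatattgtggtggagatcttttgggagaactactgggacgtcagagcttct
MDM4 probe A_23_P103503, hg19 chr1:204518623-204518682: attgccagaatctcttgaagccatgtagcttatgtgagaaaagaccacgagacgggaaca

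MDM2, the ubiquitin ligase that marks p53 for degradation, also had 4 probes, and they did not move together. The brightest had levels of −3.01 and −3.15 with the mimic and −2.78 and −2.74 in the control, a difference of −0.32 ± 0.08 (SE, adjusted p = 0.139, limma). The probes at bases 7042 and 5056 gave −0.39 and −0.20, and their mimic arrays were below the control arrays as well. The probe at base 1973 gave 0.07 and its conditions overlapped, with levels of −5.70 and −5.65 against −5.82 and −5.67. This probe was the dimmest of MDM2, near the lowest detected signals of the arrays (−6.06 to −5.95).

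**Figure D2:**
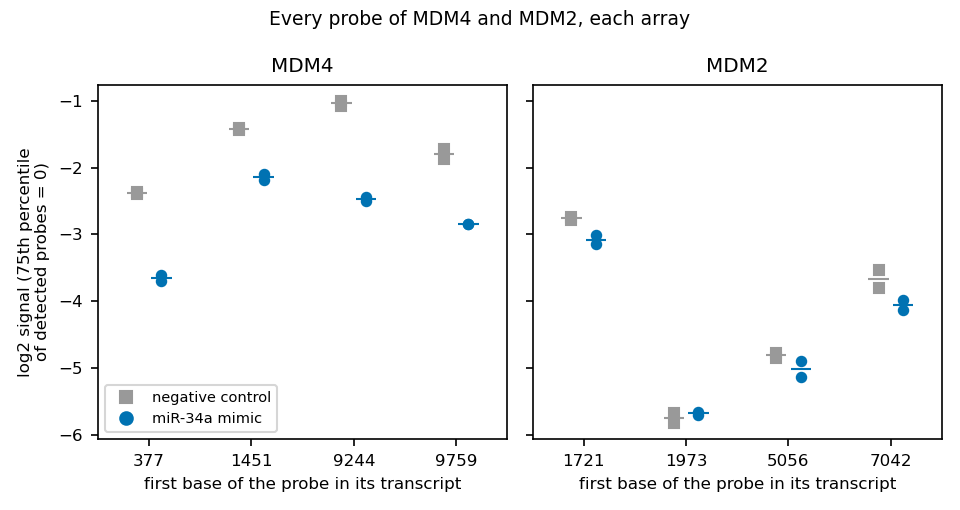
Log2 signal of every MDM4 and MDM2 probe on each array, ordered by the first base of the probe in its transcript, with lines at the means. For MDM4 all 4 probes are lower on both mimic arrays, whereas for MDM2 the probe at base 1973 overlaps between the conditions.

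PPM1D, the phosphatase WIP1 that returns p53 to rest, differed by 0.04 on its brightest probe and 0.03 on the other, and both overlapped between the conditions. CCNG1, cyclin G1, differed by −0.06 ± 0.05 (SE) on its brightest probe. Its second probe was lower by more, with levels of −3.12 and −3.21 against −2.91 and −2.78 and a difference of −0.32 (adjusted p = 0.139, limma).

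The growth arrest genes were mostly lower, with 7 of 8 tested genes below the control on both mimic arrays, against 32.1% of all gene names, and a median difference of −0.19. PLK2 (chr5:57749993-57750052) had levels of −2.84 and −2.83 with the mimic and −2.21 and −2.27 in the control. BTG2 (chr1:203278454-203278513), an antiproliferative cofactor of mRNA decay, had levels of −0.16 and −0.19 with the mimic and 0.27 and 0.32 in the control. Neither gene overlapped between the conditions, with differences of −0.60 ± 0.06 for PLK2 and −0.47 ± 0.06 for BTG2 (SE, adjusted p = 0.0933 for both, limma). PLK2 is just past 1.5-fold, and its difference was −0.56, within 1.5-fold, without negative control replicate 1.

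SERTAD1, a regulator of CDK4 and E2F activity, had levels of 0.91 and 0.97 with the mimic and 1.15 on both control arrays, and its difference was −0.21 ± 0.06 (SE, adjusted p = 0.152, limma). GADD45A, which slows the cell cycle after DNA damage, differed by −0.21 and PLK3, another polo-like kinase, by −0.16. BTG1 and CCNG2, related to BTG2 and to cyclin G1, differed by −0.08 and −0.07. By their brightest probes these 4 genes were lower on both mimic arrays than on both control arrays, with adjusted p from 0.2 to 0.486 (limma). A second probe of CCNG2 differed by −0.16 and overlapped between the conditions, and its remaining probe was not detected on any array.

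The exception in this group was GADD45B (chr19:2478178-2478237), a stress sensor that activates the p38 pathway. Its levels were −1.28 and −1.21 with the mimic and −1.64 and −1.82 in the control. Both mimic arrays were above both control arrays, and the difference was 0.49 ± 0.09 (SE, 1.40-fold, adjusted p = 0.114, limma).

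CDKN1A, which encodes the cyclin-dependent kinase inhibitor p21 and is the classical p53 target, did not reach the detection limit on any array and was not tested. Its single probe (A_24_P89457) had levels of −7.84 and −7.95 with the mimic and −7.95 and −6.94 in the control, while the lowest detected probes of the arrays lay between −6.06 and −5.95. The conditions overlapped, and no fold is given for signals below detection.

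**Figure D3:**
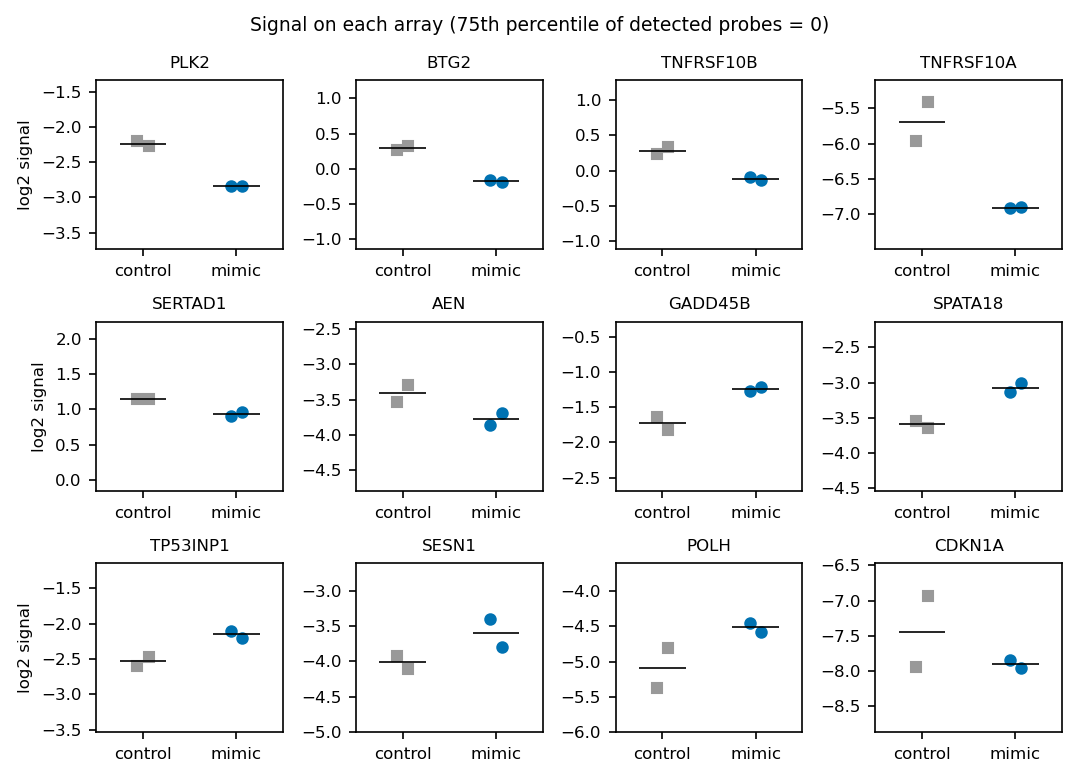
Log2 signal on each array for 12 p53 target genes, by their brightest probe, with control arrays as squares, mimic arrays as circles and lines at the means. The panels have axes of the same span, and neither CDKN1A on any array nor TNFRSF10A on the mimic arrays was well above background.

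Among the DNA repair genes, 3 of 4 were higher on both mimic arrays, against 30% of all gene names, with a median difference of 0.17. POLH, the polymerase that copies past ultraviolet damage, had levels of −4.45 and −4.58 with the mimic and −5.37 and −4.81 in the control. The control arrays were themselves far apart, and the difference of 0.58 ± 0.22 (SE, 1.49-fold) had an adjusted p of 0.234 (limma). It was 0.30 without negative control replicate 1, 0.86 without negative control replicate 2 and 0.18 with normexp, and the second POLH probe was not detected. XPC, which recognises bulky DNA lesions, had levels of −1.13 and −1.10 with the mimic and −1.33 and −1.32 in the control, a difference of 0.21 ± 0.05 (SE, adjusted p = 0.146, limma).

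DDB2, its partner in finding ultraviolet damage, differed by 0.13 on its brightest probe and by −0.22 on its second, whose conditions overlapped, and the mean of both was −0.05. RRM2B, a ribonucleotide reductase subunit that supplies nucleotides for repair, differed by −0.18 and −0.16 on its 2 probes, with overlap in both.

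The redox and metabolic targets showed small differences, 3 of 4 upward, with a median of 0.10. SESN1, a sestrin that restrains mTORC1, had levels of −3.40 and −3.80 with the mimic and −3.93 and −4.10 in the control. Its mimic arrays were both above the control arrays but lay far apart, and the difference was 0.41 ± 0.17 (SE, adjusted p = 0.255, limma). It was 0.21 without miR-34a mimic replicate 1 and 0.19 with normexp. Its relative SESN2 differed in the other direction, by −0.15 ± 0.06 (SE), and FDXR, a mitochondrial reductase, by 0.19 ± 0.05 (SE). TP53I3, a quinone oxidoreductase, differed by 0.01 and 0.04 on its 2 probes.

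TIGAR, which lowers glycolytic flux, was not on the array under that name. The probe of its transcript NM_020375, named C12orf5 in the files, had levels of −1.79 and −1.71 with the mimic and −2.14 and −2.06 in the control. Both mimic arrays were higher, by 0.35 ± 0.07 (SE, adjusted p = 0.117, limma), and this gene is not in the counts.

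All 3 death receptors were lower on both mimic arrays, against 32.1% of all gene names, but only 2 of them were detected on all 4 arrays. TNFRSF10B, the TRAIL receptor DR5, had levels of −0.09 and −0.14 with the mimic and 0.23 and 0.34 in the control. The conditions did not overlap, and the difference was −0.40 ± 0.07 (SE, 1.32-fold, adjusted p = 0.104, limma).

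TNFRSF10A, the TRAIL receptor DR4, had levels of −5.97 and −5.41 in the control and −6.91 and −6.90 with the mimic. It was not well above background on either mimic array, so that its difference is given as a bound of 1.26-fold. This is set against the lowest detected signal of any probe on the mimic arrays (adjusted p of the measured signals 0.111, limma). The measured difference was −1.22 ± 0.22 (SE), and it was −0.28 with normexp, within 1.5-fold. The normexp difference is smaller than the bound, so the bound is not a minimum over the settings.

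FAS, the receptor of the FAS ligand, had 3 probes and all were lower on both mimic arrays. Its brightest probe, spotted 10 times, had levels of −0.58 and −0.57 with the mimic and −0.43 and −0.45 in the control, a difference of −0.13 ± 0.05 (SE). The other probes gave −0.37 and −0.16, so the size differed between probes while the direction did not.

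Of the 9 other apoptosis and survival genes, 3 were higher and 1 lower at an unadjusted p under 0.05 (limma). Over all gene names these shares were 12.5% and 12.7%. The median difference of the group was 0.03. SPATA18, which takes part in mitochondrial quality control, had levels of −3.14 and −3.01 with the mimic and −3.55 and −3.64 in the control. TP53INP1, a cofactor that promotes p53-dependent death and autophagy, had levels of −2.10 and −2.20 with the mimic and −2.59 and −2.47 in the control. Neither overlapped between the conditions, and the differences were 0.52 ± 0.08 for SPATA18 (adjusted p = 0.0998, limma) and 0.38 ± 0.08 for TP53INP1 (adjusted p = 0.124, limma). The second TP53INP1 probe differed by 0.81 ± 0.55 (SE), with 1 of 2 control arrays not well above background and overlap between the conditions.

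PERP, a desmosomal membrane protein, was higher by 0.17 ± 0.05 (SE) without overlap. AEN, an apoptosis-enhancing nuclease, was the lowest of this group, with levels of −3.86 and −3.69 against −3.53 and −3.30 and a difference of −0.36 ± 0.12 (SE, adjusted p = 0.194, limma). Its second probe overlapped between the conditions and differed by −0.20.

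EI24, TRIAP1, ZMAT3, PHLDA3 and RPS27L had differences between −0.02 and 0.04. EI24, a membrane protein of the endoplasmic reticulum, differed by 0.03 ± 0.05 (SE). PHLDA3, an inhibitor of AKT, differed by 0.01 with an SE of 0.24, with mimic arrays far apart at −4.34 and −4.92. TRIAP1, ZMAT3, PHLDA3 and RPS27L overlapped between the conditions.

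Of the 11 members with several tested probes, 9 had all of them in 1 direction, and the exceptions were MDM2 and DDB2. The median SD between arrays over the members was 0.04 for the mimic and 0.04 for the control. The 7 members whose conditions overlapped were PPM1D, RRM2B, TP53I3, PHLDA3, TRIAP1, ZMAT3 and RPS27L.

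The promoter sequences were examined because these genes are grouped as p53 targets. The p53 response element was searched for in its form of 20 bases without a spacer, whose consensus reads the same on both strands, in the window from 250 bases before to 50 after each start site (RefSeq, GRCh38.p14). With up to 2 mismatches, 4 of the 28 members that had a window held it, against 0.82% of 27305 genes, and 6 members had no window in the table. The element is in capitals in each window below.
DDB2, chr11:47214964-47214993, plus strand: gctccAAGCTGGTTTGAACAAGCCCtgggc
FAS, chr10:88991304-88991333, plus strand: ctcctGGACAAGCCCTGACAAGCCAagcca
MDM2, chr12:68808918-68808947, plus strand: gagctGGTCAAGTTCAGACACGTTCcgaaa
AEN, chr15:88621301-88621330, plus strand: gagccGGGCTTGCCCGGGCATGTGGgagct

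DDB2 had 1 mismatch and the others 2. Of these 4 genes, FAS, MDM2 and AEN were lower on their brightest probe and DDB2 was higher, and 0 of them differed by more than 1.5-fold. A match is only a match of letters, and many p53 elements lie outside such a window.

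The genes that act on p53 differed in both directions. Of 30 genes for upstream kinases, cofactors and relatives of p53, 27 were tested, 15 lower and 12 higher, with a median difference of −0.07. Both mimic arrays lay below both control arrays for 12 of the 27, against 32.1% of all gene names, and above them for 8, against 30%. At an unadjusted p under 0.05 (limma), 7 were lower and 2 higher, against 12.7% and 12.5% of all gene names. HDAC1, a histone deacetylase that also deacetylates p53, had levels of 1.97 and 1.96 with the mimic and 2.64 and 2.65 in the control, a difference of −0.68 ± 0.05 (SE, 1.60-fold, adjusted p = 0.0933, limma). USP7, a deubiquitinase of MDM2 and p53, was higher, with levels of −4.52 and −5.14 against −5.55 and −5.68 and a difference of 0.78 ± 0.24 (SE, 1.72-fold, adjusted p = 0.185, limma). Its mimic arrays lay far apart, and its control levels were near the lowest detected signals of those arrays (−5.995 and −5.951). HDAC1 and USP7 were the genes of that list past 1.5-fold, 1 in each direction.

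Of 44 other reported p53 targets, 33 were tested, 12 lower and 21 higher, with a median of 0.06. GDF15, a secreted stress cytokine, was the only one past 1.5-fold. Its levels were 2.77 and 2.74 with the mimic and 3.82 and 3.86 in the control, a difference of −1.08 ± 0.05 (SE, 2.12-fold, adjusted p = 0.0933, limma).

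Genes that p53 is known to lower through p21 and the DREAM complex, most of them for DNA replication and mitosis, were nearly all lower. Of 28 tested, 25 were lower and 3 higher, and both mimic arrays were below both control arrays for 23, against 32.1% of all gene names, although 0 of them passed 1.5-fold. Their median difference was −0.19, in a range from −0.52 to 0.16. CDKN1A was not detected on these arrays, and its part in these differences was not tested.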

How the data were processed

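Gene expression of GIST-T1 cells given the miR-34a mimic (2 arrays) was compared with that of the negative control (2 arrays), as the sample labels group them. The arrays were Agilent one-colour arrays with 60-base probes, labelled from 100 ng of RNA. The authors deposited the intensity of each of 58717 spots per array from Agilent Feature Extraction 10.7 (10.7.3.1 in the file headers), after background subtraction and without scaling between arrays. A deposited table of the same intensity values was within 0.5%. Control spots and 293 to 424 spots with outlier flags per array were left out, and spots of a probe were averaged. The log2 signal was shifted by the 75th percentile, per array, of the 20068 probes well above background on all 4 arrays. limma 3.58.1 in R 4.3.3 was run over the 21474 probes that were detected (well above background) on the 2 arrays of 1 condition or more, with Benjamini-Hochberg adjustment. The brightest probe stood for each gene in counts. The script was tested on simulated data. The fold of 1.5 is that of the methods, which name t tests in general and no test for the arrays. All members with all their probes were named, and of the other lists up to 3 genes a direction past 1.5-fold. Some genes that this rule or the marker lists cover are not reported here. Gene names and hg19 positions are those in the files, and RefSeq gave the promoters and the microRNA. The members and lists were chosen with earlier results of these data known. The number of arrays limits the precision. Alternatives were other scalings, background corrections, filters, variance models, probe summaries, a replicate block, the authors' table, the methods' t-test and leaving out each array.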

Additional observations from a re-analysis of the deposited data

How the results depend on the processing

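The count of members at an adjusted p under 0.05 was 0 in all settings tried except normexp (4) and the variance trend (6). Under normexp, 1 member was more than 1.5-fold lower, and with an array left out 2 to 3 were. More than 1.5-fold higher was 1 member with the percentile over all probes, 1 with quantile normalization and 1 with the mean of all probes of a gene, and 0 to 2 with an array left out. The median difference of the members was −0.032 with the percentile over all probes, −0.011 with quantile normalization, −0.045 with normexp, −0.064 with no filter on dim probes, −0.016 with probes detected on all 4 arrays, −0.061 with the mean of all probes and −0.073 to −0.044 with an array left out.

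Of the 32 members, 25 kept their direction in every setting. The others reversed, and the cause was not tested. With an array left out, PPM1D ranged from −0.002 to 0.082, PHLDA3 from −0.277 to 0.304, TRIAP1 from −0.063 to 0.133, ZMAT3 from −0.095 to 0.135, RPS27L from −0.08 to 0.048 and TP53I3 from −0.023 to 0.048. Normexp gave −0.079 for PHLDA3 and −0.033 for TRIAP1, quantile normalization gave 0.014 for RPS27L, and the mean of its probes gave −0.047 for DDB2.

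Over all gene names, 801 were more than 1.5-fold lower and 311 higher. These counts were 167 and 55 with normexp, 5305 and 1399 with no filter, 406 and 206 with probes detected on all 4 arrays, and 603 and 474 with quantile normalization. The probes at an unadjusted p under 0.05 were 5257. Leaving out negative control replicate 1 or 2 lowered this to 2934 or 2901. The methods' t-test gave 4312 such probes, 1 of them past Benjamini-Hochberg adjustment, and put 9 members lower and 7 higher. With replicate number as a block, 0 members were called, the median was −0.040, and 7 members were lower and 4 higher at an unadjusted p under 0.05. The deviations of same-numbered arrays had a correlation of −0.028, so the signals showed no shift shared by same-numbered arrays. This cannot show whether such arrays were prepared together. The counts of members that did not overlap were not recomputed with an array left out or with the mean of probes, nor was the count of called members with the mean of probes.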
